A study of Mus musculus with 12 samples.

Results

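The members described here are 44 5′ UTRs of developmental and neuronal identity transcription factors, out of 3366 named 5′ UTRs on which eIF4G2 tags were counted. They were chosen by gene symbol alone, with a fixed pattern over the SOX, FOX, POU, bHLH, NFI, SATB, CUX, BCL11, MYT1, DLX, MEIS, PBX, nuclear receptor, STAT, SMAD and E2F names. The pattern also took Foxred1, which encodes an oxidoreductase, and Dlx1as, an antisense RNA, and neither is a transcription factor. Of the 44 members, 42 (95.45%) carried at least 1 tag, and Stat3 and Sox21 carried 0. Of all 5′ UTRs listed, 97.45% carried at least 1 tag.

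The study used crosslinking immunoprecipitation (CLIP), in which ultraviolet light links a protein to the RNA it touches and the bound fragments are sequenced as tags. The cells were primary cortical neurons cultured from embryos of CD-1 mice. The question put to the libraries was how neuronal activity changes the binding of eIF4G2 to 5′ UTRs. Resting neurons received cycloheximide for 2 min before harvest. Depolarized neurons received tetrodotoxin and DL-AP5 for 2 h, 55 mM KCl for 1 h and 30 min of rest, and then the same 2 min of cycloheximide. The labels name no genotype and no sort by cell type for either condition. There were 6 resting libraries and 5 distinct depolarized libraries (replicates 1, 2, 3, 4 and 6), since the table labelled depolarized replicate 5 held the same values as resting replicate 5. Nothing in the labels says whether replicates came from separate litters, so P values of tests over libraries measure the spread between these libraries. The exact tests on tag counts given below do not include that spread.

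eIF4G2, also called DAP5, is a relative of the scaffold eIF4G that lacks the region through which eIF4G binds the cap-binding protein eIF4E, and it helps start translation on some messages with structured leaders or upstream open reading frames. Transcription factors of the families listed above fix regional, layer and transmitter identity in the developing cortex, and many of them stay expressed in mature neurons. Their transcripts often have long leaders rich in G and C. A tag on a 5′ UTR depends on both the amount of the transcript and its binding, and no total RNA was measured in these libraries, so binding per transcript and transcript abundance cannot be told apart.

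The libraries held between 264 and 5240 tags, 15767 in all (6471 resting and 9296 depolarized), and depolarized replicate 1 alone gave 56.37% of the depolarized tags. Resting replicate 1 gave 49.82% of the resting tags and stood apart from the other resting libraries in depth. A library without a tag on a given 5′ UTR allows up to 3 tags, or from 572.5 CPM (the tag count divided by the library's total and put on the usual common scale) in depolarized replicate 1 to 11360 CPM in depolarized replicate 6. Of 10 neuron markers, 5 were listed and carried 168 tags, 46 at rest and 122 after depolarization, 143 of them on Syt1, and their summed share was 0.1551% to 4.248% of a resting library and 0.5464% to 1.879% of a depolarized library. Of the markers of other cells, 1 of 7 for astrocytes was listed (Slc1a2, with 5 resting and 5 depolarized tags), 1 of 6 for microglia (1 tag), and none of the 7 for oligodendrocytes, 5 for progenitors or 3 for endothelial cells, so those markers were not measured here.

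The study's motif for eIF4G2 is the hexamer CGCGGC, and copies of it in Nr2f1, Sox4 and Bcl11b, each with over 10 tags, and in Nfib, with 5, are shown first so that the tag counts can be read beside the sequence. Each line gives 30 bases of the transcribed strand, 5′ to 3′, read in GENCODE M21 transcripts (GRCm38, the assembly also called mm10), with the hexamer in capitals. All lie in 5′ UTR exons of the named gene. The Sox21 lines are shown for contrast, since that 5′ UTR held 6 copies and 0 tags.
Nr2f1, chr13:78199276-78199305, minus strand, 714 bases before the start codon: gacctcctcctcCGCGGCcgccgccgccct
Nr2f1, chr13:78198610-78198639, minus strand, 48 bases before the start codon: gcccgcgcgcccCGCGGCcctcggcgagca
Sox4, chr13:28953217-28953246, minus strand, 207 bases before the start codon: gaaactcctcgcCGCGGCcgactccagcct
Bcl11b, chr12:108003210-108003239, minus strand, 78 bases before the start codon: cggaggaggaggCGCGGCggcggcggcggc
Nfib, chr4:82505544-82505573, minus strand, 798 bases before the start codon: gcggagtccacgCGCGGCgggtcagacccg
Sox21, chr14:118236992-118237021, minus strand, 1368 bases before the start codon: ctcacacacggcCGCGGCtggacatgcaca
Sox21, chr14:118236180-118236209, minus strand, 556 bases before the start codon: cctcttcctcttCGCGGCcacccctccccc

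The tables give tags per whole 5′ UTR, so which of these copies a tag lay on is not known. The members held 262 of the 15767 tags (1.662%), 82 in resting and 180 in depolarized libraries, and they were 1.307% of the 5′ UTRs listed. Tags were uneven among them. Nr2f1, Sox4 and Sox11 together held 108 tags (41.22% of the members' tags), and the 7 members with at least 10 tags held 174 (66.41%). The median member had 2 tags, as did the median of all 5′ UTRs, and 28 members had 2 tags or fewer. At least 10 tags lay on 15.91% of members and on 9.418% of all 5′ UTRs. Tags only after depolarization lay on 38.64% of members and 35.35% of all 5′ UTRs. Tags only at rest lay on 20.45% and 27.18%. In the order of all 5′ UTRs by tags, Nr2f1 was at place 39, Sox4 at 43, Sox11 at 64 and Bcl11b at 120.

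**Figure D1:**
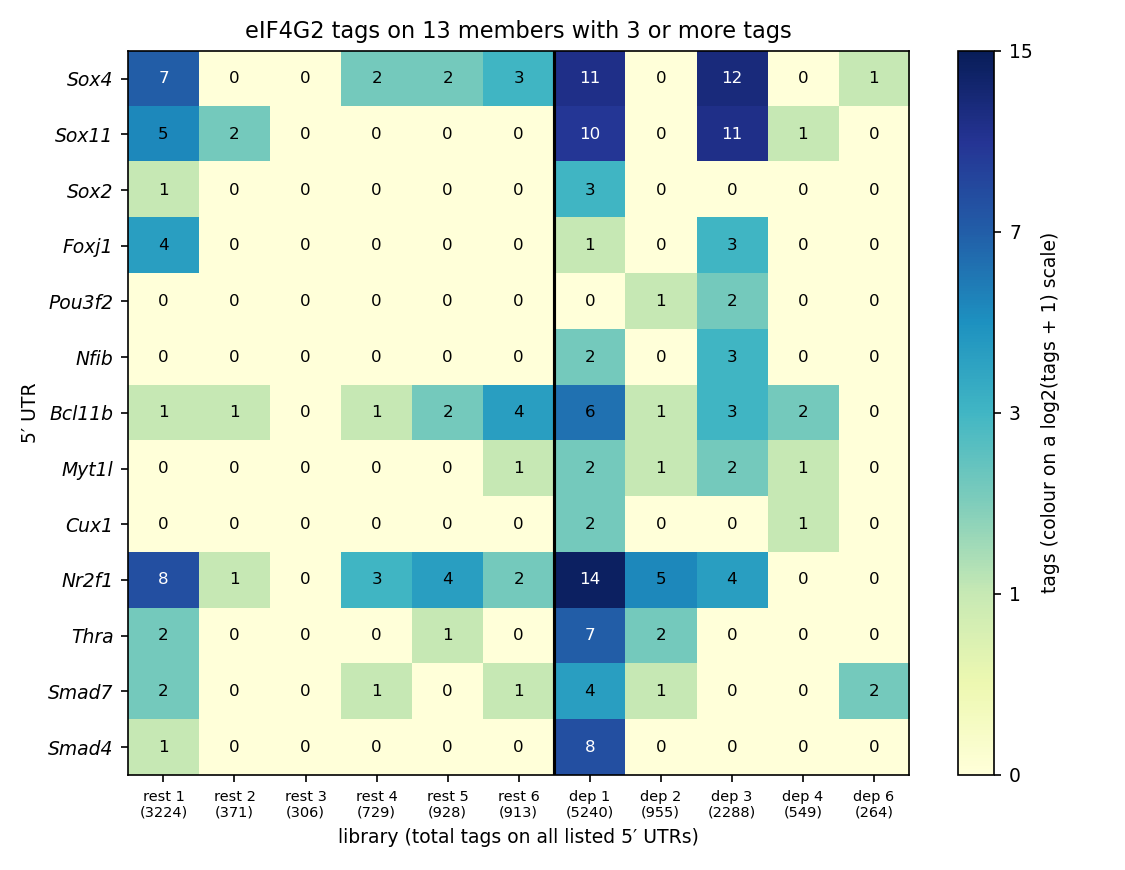
Tags in each of the 11 libraries (columns, with their totals) on 13 members with 3 or more tags (rows, by gene), with colour on a log2(tags + 1) scale and the tag count in each cell. Nr2f1, Sox4 and Bcl11b have tags in most libraries, whereas Smad4 has 8 of its 9 in depolarized replicate 1.

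As a share of each library, the members took 1.27%, 1.08%, 0.327%, 1.51%, 1.19% and 1.53% of the resting libraries 1 to 6, and 1.95%, 1.57%, 2.32%, 1.28% and 1.14% of the depolarized libraries 1, 2, 3, 4 and 6. The mean was 1.15% ± 0.442 at rest (SD, n = 6) and 1.65% ± 0.486 after depolarization (SD, n = 5), and the ranges overlapped. The depolarized library was higher in 3 of the 5 replicate numbers that had both (1, 2 and 3) and lower in replicates 4 and 6. In the smallest libraries the Wilson 95% interval of the share spanned 0.0577% to 1.83% (resting replicate 3) and 0.387% to 3.29% (depolarized replicate 6), for counting error only.

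**Figure D2:**
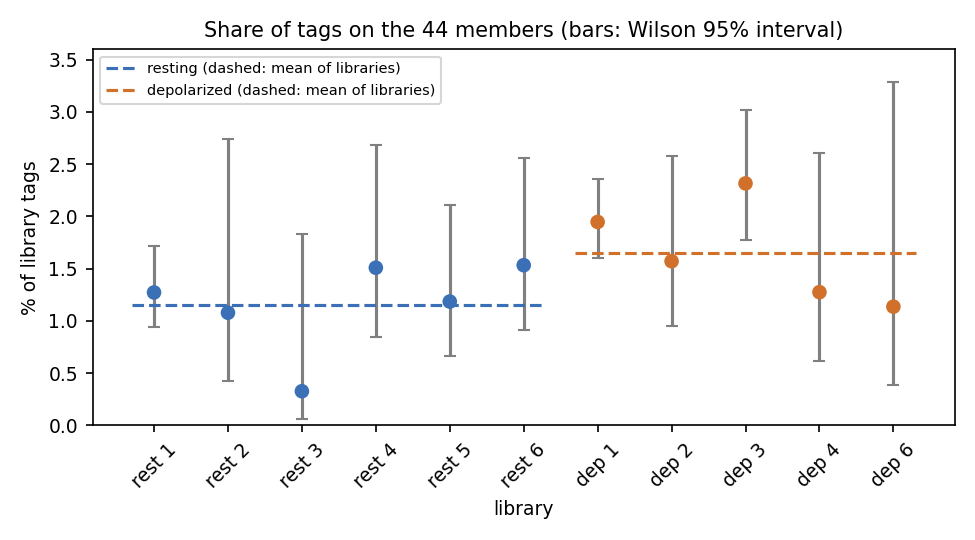
Percent of each library's tags that lay on the 44 members (points, one per library, resting and depolarized) with Wilson 95% intervals for counting error. The highest value is 2.32% in depolarized replicate 3 and the lowest 0.327% in resting replicate 3, and the intervals of most libraries overlap.

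The nuclear receptors are transcription factors switched by small lipophilic ligands or, in orphan members, acting without a known one. They held 59 tags (22.52% of the members' tags) over 7 members, 23 at rest and 36 after depolarization. As a share of a library this was 0.315% ± 0.18 at rest and 0.321% ± 0.388 after depolarization (mean and SD, n = 6 and 5). Depolarized replicate 2 was at 0.942%, and the other depolarized libraries were at 0.401% or less. Nr2f1, the orphan receptor COUP-TFI that patterns cortical areas, had the most tags of any member. Its 5′ UTR lies at chr13:78198574-78199757 on the minus strand, 1184 bases with 73.14% G and C. Resting libraries 1 to 6 gave 8, 1, 0, 3, 4 and 2 tags on it, and depolarized libraries 1, 2, 3, 4 and 6 gave 14, 5, 4, 0 and 0, the order used for every gene below. Tags were present in 5 of 6 resting libraries and 3 of 5 depolarized ones, and the groups overlapped. The mean was 2632 ± 1560 CPM at rest (SD, n = 6) and 1931 ± 2177 CPM after depolarization (SD, n = 5), a difference of -701 CPM (two-sided exact permutation test, P = 0.584, adjusted 0.973). A gene on the other strand, A830082K12Rik, overlaps this 5′ UTR, and whether counting used strand is not given in the sources used here.

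Thra encodes thyroid hormone receptor alpha, which times neuronal maturation. Its tags were 2, 0, 0, 0, 1 and 0 at rest and 7, 2, 0, 0 and 0 after depolarization. Most libraries had none, and the tags sat in replicates 1, 2 and 5. The means were 283 ± 461.6 and 686 ± 976.9 CPM (SD, n = 6 and 5; two-sided exact permutation test, P = 0.424, adjusted 0.973). The other nuclear receptors, Nr1d1, Nr1d2, Nr2c2, Nr2f2 and Nr2f6, had 1 or 2 tags each. Nr1d1 and Nr1d2 encode the circadian repressors REV-ERB alpha and beta, and all of their 3 tags were in depolarized replicates 2 and 3. This state is common, since 35.35% of all 5′ UTRs had tags only after depolarization.

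The SOX factors, which bind DNA through an HMG box, held 75 tags (28.63%) over 7 members, the most of any family, 23 at rest and 52 after depolarization, or a mean share of 0.299% ± 0.186 and 0.438% ± 0.372 of a library (SD, n = 6 and 5). Depolarized replicate 3 was at 1.05%, and the other depolarized libraries were at 0.477% or less. Sox4 and Sox11 are SoxC factors of newborn and differentiating neurons. Sox4 carried 7, 0, 0, 2, 2 and 3 tags at rest and 11, 0, 12, 0 and 1 after depolarization. Sox11 carried 5, 2, 0, 0, 0 and 0 at rest and 10, 0, 11, 1 and 0 after depolarization. In both genes depolarized replicates 1 and 3 held nearly all of the depolarized tags, and for Sox11 the resting tags were in replicates 1 and 2 only. The mean for Sox4 was 1726 ± 1401 CPM at rest and 2226 ± 2317 CPM after depolarization (SD, n = 6 and 5; two-sided exact permutation test, P = 0.697, adjusted 0.973). For Sox11 the means were 1157 ± 2165 and 1708 ± 1968 CPM (SD, n = 6 and 5; two-sided exact permutation test, P = 0.675, adjusted 0.973). Its resting mean rests largely on replicate 2, at 5391 CPM from 2 tags. Sox2, a factor of neural stem cells, had 1 resting and 3 depolarized tags, all in the replicate 1 libraries, and lies inside the longer transcript Sox2ot on the same strand. Sox1 had 2 tags, Sox9 and Sox12 had 1 each, and Sox21 had 0.

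The Sox11 leader is short, 166 bases at chr12:27342409-27342574 with 80.12% G and C, and carried 174.7 tags per kb. The Sox4 leader is 692 bases at chr13:28953022-28953713, with 54.91 tags per kb, and that of Nr2f1 had 34.63. These densities are over all libraries and per length of the GENCODE leader.

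The FOX factors share a winged-helix DNA-binding domain and held 34 tags (12.98%), 9 at rest and 25 after depolarization, with mean shares of 0.0819% ± 0.128 and 0.145% ± 0.205 (SD, n = 6 and 5). Foxj1, a regulator of motile cilia, had 4 resting tags, all in replicate 1, and 4 depolarized tags in replicates 1 and 3. Foxo3, a factor of the insulin and stress response, had 2 tags, and Foxj2 and Foxn2 had 1 each.

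The CUX, BCL11, MYT1 and related factors set the identity of projection neurons and held 41 tags (15.65%), 11 at rest and 30 after depolarization, with mean shares of 0.205% ± 0.194 and 0.309% ± 0.267 (SD, n = 6 and 5). Bcl11b, also called Ctip2, marks deep-layer neurons that project below the cortex, and it carried 1, 1, 0, 1, 2 and 4 tags at rest and 6, 1, 3, 2 and 0 after depolarization. With tags in 9 libraries it was the member found in most of them. The means were 1819 ± 1627 and 1429 ± 1340 CPM (SD, n = 6 and 5; two-sided exact permutation test, P = 0.662, adjusted 0.973). Myt1l, which represses non-neuronal genes, had 1 tag in resting replicate 6 and 2, 1, 2, 1 and 0 after depolarization, so its depolarized tags were spread over 4 of 5 libraries. Cux1, of upper-layer neurons, had 3 tags, 2 in depolarized replicate 1 and 1 in depolarized replicate 4. Its relative Cux2 had 1 tag in each replicate 1 library, and Bcl11a had 1 tag. A gene on the opposite strand, Gm20208, overlaps the leader of Myt1l.

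SMAD proteins carry signals from BMP and TGF-β receptors into the nucleus, with Smad4 the shared partner and Smad7 an inhibitor. They held 20 tags, 5 at rest and 15 after depolarization, with mean shares of 0.0566% ± 0.0636 and 0.218% ± 0.316 (SD, n = 6 and 5). Depolarized replicate 6 was at 0.758% from 2 tags, and the next depolarized library was at 0.229%. In none of these families did the means differ by more than the larger SD. Smad7 carried 2, 0, 0, 1, 0 and 1 tags at rest and 4, 1, 0, 0 and 2 after depolarization. In depolarized replicate 6, the shallowest library, 2 tags on Smad7 stand for 7576 CPM, and the next depolarized library was at 1047 CPM. The depolarized mean of Smad7 thus rests largely on replicate 6. The means were 514.6 ± 612.8 and 1877 ± 3219 CPM (SD, n = 6 and 5; two-sided exact permutation test, P = 0.435, adjusted 0.973). Smad4 had 1 tag in resting replicate 1 and 8 in depolarized replicate 1, and none elsewhere.

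The remaining families were thin. Of the NFI factors, Nfib, needed for forebrain development, had 0 resting tags and 2 and 3 in depolarized replicates 1 and 3, and Nfix had 1. Of the POU factors, Pou3f2 (Brn2), of upper-layer neurons, had 3 tags, 1 in depolarized replicate 2 and 2 in replicate 3, and Pou6f1 had 2. The DLX, MEIS and PBX homeobox genes held 14 tags. Dlx2, of cortical interneurons, had 2 tags, both in resting replicate 1. Meis1 had 2 tags, and Meis2 and Pbx2 1 each. Among the bHLH genes, Tcf12 had 2 tags, both in depolarized replicate 1, and Tcf3, Neurod6 and Id4 had 1 each. E2f6 had 1 tag at rest, Foxred1 1 after depolarization and Dlx1as 1 at rest.

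**Figure D3:**
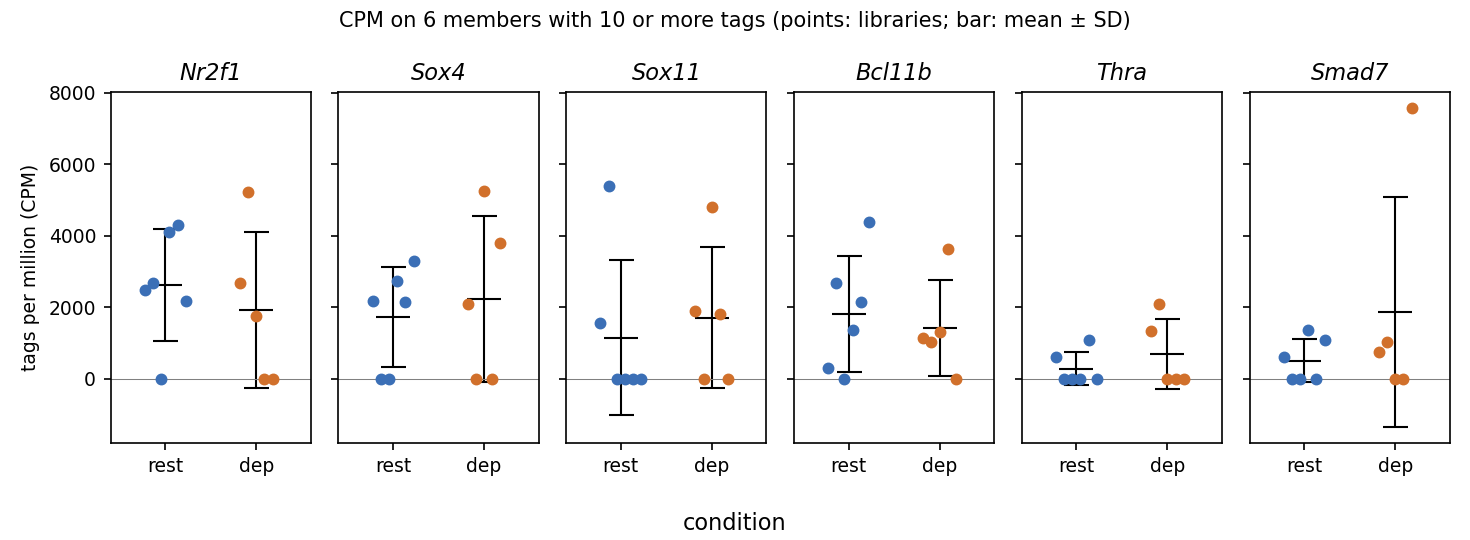
CPM in each library (points) with mean ± SD (bars) at rest (n = 6) and after depolarization (n = 5) for 6 members with 10 or more tags. In each panel the points of the conditions overlap, and libraries with 0 tags lie on the axis.

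Summed by condition, 5 members passed the study's test with more tags after depolarization and 0 with fewer. Among all 3366 5′ UTRs 5.08% passed it with more tags and 4.4% with fewer. These were 171 and 148 5′ UTRs, and with TMM scaling of the sums they were 233 and 90, with the members still at 5 and 0. The neuron markers Syt1 (40 resting and 103 depolarized tags, exact binomial P = 0.00142) and Map2 (2 and 13, exact P = 0.0225) passed the same test with more tags, with adjusted P values of 0.908 and 0.66 by edgeR, and their part in the members' calls was not tested. This test sums tags per condition, scales both sums to equal totals and applies a two-sided exact binomial test with P below 0.2, so the spread between libraries does not enter it. Smad4, Sox11 and Nfib were among the 5. Smad4 had a depth-scaled ratio of 5.57 (95% interval 0.747 to 247; P = 0.0703 by the exact binomial test) and Sox11 of 2.19 (0.903 to 6.06; exact P = 0.0872), and both intervals included 1. Nfib had 0 resting and 5 depolarized tags (exact P = 0.125). Against a floor of 3 tags over the resting libraries its ratio was 1.16. That value takes the depolarized tags without counting error, so it does not exclude a ratio of 1.

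These calls rested on replicates 1 and 3. Without replicate 1, 1 member passed with more tags (Sox11, exact P = 0.0225), where 2.91% of all 5′ UTRs did. Smad4 then had an exact P = 1. Without replicate 3, 3 members passed, Smad4 among them, where 4.69% of all 5′ UTRs did, and Sox11 had an exact P = 0.629 and Nfib 0.5. When tags were compared within replicate numbers, 3 members passed with more tags, Smad4 among them (exact P = 0.167), and 1 with fewer, Dlx2 (0.145). Sox11 (0.829) and Nfib (0.571) did not pass it. Over all 5′ UTRs that comparison called 4.13% with more tags and 9.54% with fewer. Just outside the threshold lay Myt1l (exact P = 0.219) and Pou3f2 and Cux1 (0.25 each). The members with most tags had ratios close to 1 with wide intervals, 0.89 (0.459 to 1.75) for Nr2f1, 1.19 (0.593 to 2.5) for Sox4 and 0.928 (0.359 to 2.49) for Bcl11b. Of the 42 members with a tag, 26 had a log2 fold change above 0 (61.9%, against 52.65% of all 5′ UTRs with a tag).

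**Figure D4:**
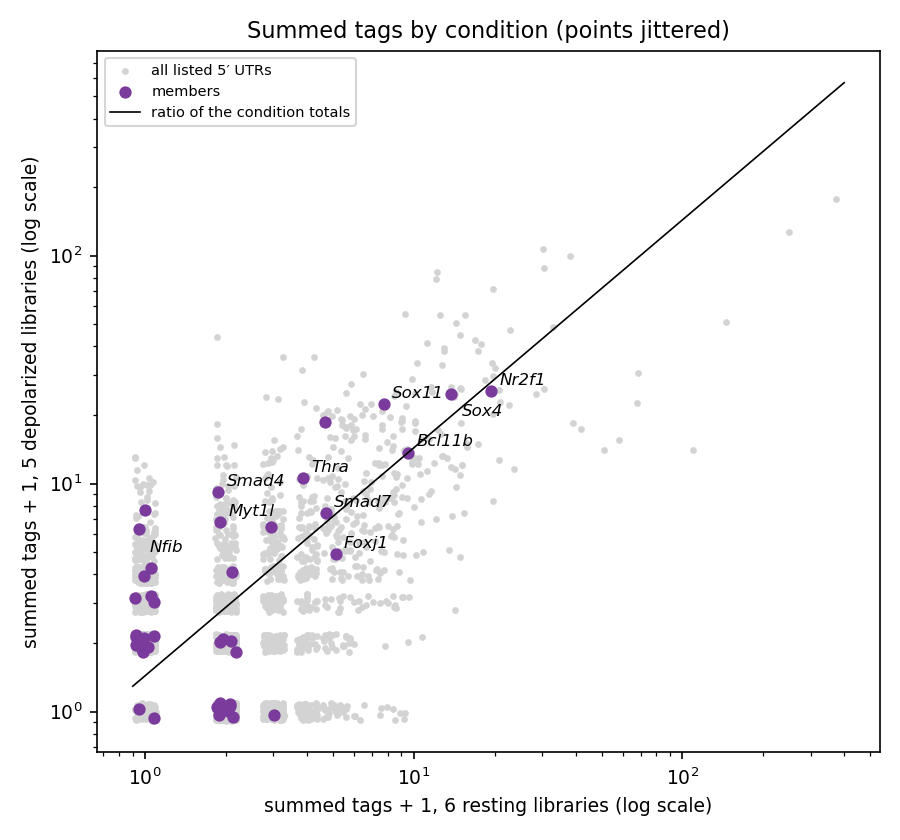
Summed tags + 1 in the 6 resting (x axis) and 5 depolarized (y axis) libraries, both on log scales, for all 5′ UTRs (grey) and the members (purple, most of those with at least 5 tags named), with slight jitter and a line at the ratio of the condition totals. Nr2f1 and Sox4 have the most member tags and do not pass, while Nfib has 0 resting tags.

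With the spread between libraries in the model, no member passed. The edgeR fit covered 317 5′ UTRs that reached 10 tags, 7 of them members, of which 0 were higher and 0 lower at an adjusted P value below 0.05, where 0.0% of all 5′ UTRs were higher and 0.0% lower. At an unadjusted P value below 0.05, 0 of the 7 members were called, where 7.57% of all were higher and 0.315% lower, and DESeq2 called 0 members too. The log2 fold changes by edgeR were 1.27 for Sox11 (SE 1.00, adjusted P = 0.829) and 0.94 for Thra (SE 1.16, adjusted P = 0.881). With each replicate number left out in turn, the value for Sox11 ran from 0.16 (without replicate 3) to 2.06 (without replicate 2), while Thra, at 0.44 without replicate 2, had too few tags to be tested without replicate 1. They were 0.73 for Smad7, 0.51 for Sox4, 0.10 for Bcl11b and -0.06 for Nr2f1, each with an SE near or above 1. Smad7 was at 1.29 without replicate 4 and had too few tags to be tested without replicate 1 or 6. The median over the 7 was 0.73 and over all tested 5′ UTRs 0.52, and without TMM scaling they were 0.56 and 0.38. Without replicate 1 the median was 0.10 over the 4 members that could be tested and 0.58 over all, and without replicate 3 it was 0.16 over the 7 and 0.24 over all. In a fit of the 1293 5′ UTRs with at least 3 tags, Nfib (log2 fold change 2.74, SE 1.26) had an adjusted P = 0.27 by edgeR. With errors of this size, a 2-fold change in a single member could not be told from the spread between these libraries.

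The leaders could be measured in sequence for 43 members and 3316 of all 5′ UTRs. The median length was 362 bases for members and 306 for all, and the median G and C content 67.38% and 65.93%. The hexamer lay in 22 members (51.16%) against 36.76% of all, searched on the transcribed strand. The copies per kb were close, 1.596 for members and 1.549 for all. Upstream open reading frames, counted as an ATG with an in-frame stop before the start codon, were in 31 members (72.09%) and in 60.89% of all. By length, the hexamer lay in 1 of 5 members up to 183 bases (19.66% of all such leaders), 5 of 12 from 184 to 306 (36.39%), 7 of 11 from 307 to 486 (44.04%) and 9 of 15 of 487 and more (46.97%). In the same order the median was 1, 1, 2 and 5 tags for members and 1, 2, 2 and 3 tags for all.

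The hexamer was spread unevenly over the families. It lay in 5 of 5 FOX leaders and 6 of 7 SOX leaders, in 1 of 6 of the CUX, BCL11, MYT1 and related group (Bcl11b) and in 0 of 5 DLX, MEIS and PBX and 0 of 4 bHLH leaders. Leaders with the hexamer held 77.01% of the members' tags (201 of 261), and 46.46% of the tags on all leaders. Without Nr2f1, Sox4 and Sox11 the members' value was 60.78% (93 of 153). By median, members with and without the hexamer had 2 tags each. Of the 7 members with at least 10 tags, 6 held it and Thra did not. The Nr2f1 leader held 2 copies and 3 upstream open reading frames, whereas the Sox11 leader held 1 copy and no upstream ATG. The Sox21 leader, with 6 copies in 1395 bases, had 0 tags. Of the CUX, BCL11, MYT1 and related group 6 of 6 had an upstream open reading frame, 9 of them in Myt1l. The share of members' tags on leaders with the hexamer was 82.72% at rest and 74.44% after depolarization.

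**Figure D5:**
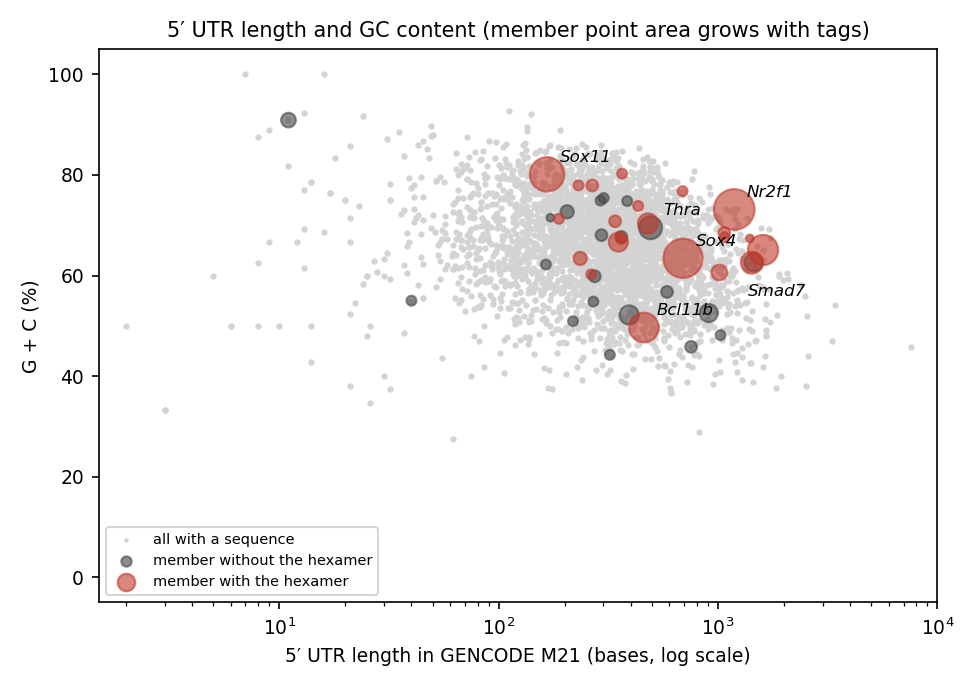
Length (bases, log scale) and G and C content (%) of the 5′ UTR of each gene in GENCODE M21, for all listed genes and for the 43 members, with the area of a member's point growing with its tags and colour showing whether the leader holds the hexamer. Members lie across the range of all genes, and Sox11 is short and rich in G and C while Nr2f1 is longer.

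Of 97 genes that act with these factors, chosen from the Notch, BMP and TGF-β, JAK, Wnt, nuclear receptor cofactor, E2F partner and LIM cofactor pathways, 40 were listed, and all 40 had a tag, 183 in total. A tag was present on 97.45% of all 5′ UTRs listed. In the pooled test 2 of the 40 passed with more tags and 1 with fewer, shares no higher than the 5.08% and 4.4% of all 5′ UTRs. The former were Gsk3b, the kinase that marks β-catenin for destruction, with 13 resting and 38 depolarized tags (exact binomial P = 0.0293), and Tle3, a Groucho corepressor, with 1 and 9 (exact P = 0.0391). The latter was Med1, a Mediator subunit that binds nuclear receptors, with 4 and 0 (exact P = 0.0625). By edgeR none of the 5 with at least 10 tags passed, with a log2 fold change of 0.94 for Gsk3b (adjusted P = 0.862) and 2.19 for Tle3 (adjusted P = 0.637). The Wnt genes held 95 of the 183 tags, and 4 of 14 Notch genes were listed with 5 tags in all.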

How the data were processed

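Per the labels and the study's methods, the authors immunoprecipitated eIF4G2 from crosslinked neurons, sequenced single-end reads, removed linkers (cutadapt in the submitters' processing notes), collapsed exact duplicates, aligned with Rsubread (mm10) and, per gene, ran summarizeOverlaps over the longest transcript's 5′ UTR. The deposited values are raw counts per library, not normalized. The counting of multiply mapped reads and of strand is not given in the sources used here. The table labelled depolarized replicate 5 is identical to resting replicate 5 and carries its heading, so it was left out. The labels name 6 replicates per condition and the study's methods fewer.

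The members and lists were chosen with earlier results of these data known. Named are members with at least 10 tags, members past the pooled test, members with at least 3 tags in one condition and 0 in the other, and the 2 with most tags in each family; others are named with counts. Results for some members that this rule names, and the sequence at some sites, are not reported here. CPM was scaled by the total over all listed 5′ UTRs. The pooled test used log2 fold changes with a pseudocount of 0.1. edgeR 4.0.16 (R 4.3.3) used TMM, quasi-likelihood tests and Benjamini-Hochberg adjustment, with at least 10 tags. DESeq2 1.42.0 was an alternative. Permutation tests and figures used Python 3.11.15, scipy 1.17.1 and matplotlib 3.10.9. Scripts were tested on simulated data. 5′ UTR sequences are the longest coding transcripts of GENCODE M21 and not the authors' UCSC models, so lengths can differ, and Sox2 has only 11 bases there.

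The labels say that the resting and depolarized samples of a replicate were pooled after reverse transcription, so numbers may mark a shared batch. The permutation tests and the main edgeR fit did not use these numbers. Same-numbered deviations over 317 5′ UTRs correlated at 0.293, 0.217, 0.14, 0.231 and 0.221 for replicates 1, 2, 3, 4 and 6, and the highest value with another number was 0.232, 0.0725, 0.192, 0.26 and 0.188, above the same-numbered one for replicates 3 and 4. Intervals cover counting error only, since molecular identifiers are not given in the sources used here.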

Additional observations from a re-analysis of the deposited data

Results flagged for a closer look

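Resting replicate 1 had 3224 tags, and the next resting library 928. On Sox11, resting replicate 2 was at 5391 CPM from 2 tags, with the next resting library at 1551 CPM. On Smad7, depolarized replicate 6 was at 7576 CPM from 2 tags, with the next depolarized library at 1047 CPM. Each of these samples lay far from the others of its group. Of 16 groups examined 3 held such a sample. For normally distributed values chance puts about 1 in 20 groups in this state, or 0.8 of 16. CPM values with many zeros and few tags need not keep that rate, so 3 cannot be set against 0.8.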

How the results depend on the processing

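The number of members with more tags in the pooled test was 5. It was 2 at a P value below 0.05 (84 of all 3366), 2 of 7 when only 5′ UTRs with at least 10 tags were tested (107 of 317), 3 with the replicate block, which also gave 1 member with fewer tags, and between 1 and 6 when each replicate number was left out in turn (1 without replicate 1, 3 without replicate 3). TMM scaling and a pseudocount of 1 left it at 5. Counts of members past edgeR's adjusted threshold were 0 in all alternatives run, the replicate block included. Over all tested 5′ UTRs, 7 of 108 were called higher without replicate 1, 1 of 317 without TMM and 1 of 295 without replicate 6. The log2 fold change of Bcl11b by edgeR, 0.10, was -0.30 without TMM, -0.36 with DESeq2, -0.01145 at 3 tags and -0.0004111 without a filter, and ran from -0.35 to 0.71 with each replicate left out. That of Sox4 ran from -0.67 to 0.76 and that of Nr2f1 from -0.46 to 0.32. The cause was not tested. The mean shares of the members stayed within 1 SD in all alternatives. Depth limits these data: 22 members had tags in 1 library only, 18 of them with 1 tag in all. Without replicate 1 edgeR could test 4 of the 7 members.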
